A study of Homo sapiens with 4 samples.

Results

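The immediate early genes of the AP-1 and EGR families were examined in Nalm-6, an established line of human B-cell precursor leukemia, under the oxidative stress experiment of a study on the INO80 chromatin remodeling complex. The members were 10 genes given by name: FOS, FOSB, FOSL1, FOSL2, JUN, JUNB, JUND, EGR1, EGR2 and IER2. Every probe whose RefSeq accession belonged to 1 of these genes was taken, which gave 14 probes for 9 genes, of 41000 probes on the array and 18203 genes that could be named. JUND had no probe by this rule and was not analysed here. There were 4 groups of 1 array each: wild-type cells (WT), cells with both alleles of the gene for actin-related protein 5 disrupted (Arp5 KO), cells with the gene for actin-related protein 8 disrupted (Arp8 KO), and cells labelled as Arp8 overexpression. Arp5 and Arp8 are subunits of INO80, and each knockout was an established line derived from Nalm-6. The paper states that conditional knockout of Arp8 was lethal to cells in earlier work, whereas Arp5 KO cells lived but grew more slowly. The treatment protocol gave heme at 20 uM for 12 hours for every sample, and so did the sample titles. The treatment field of both knockouts read "no heme", and the source field gave no heme for Arp5 KO but heme for Arp8 KO. The treatment of the knockouts is therefore uncertain, and genotype and heme cannot be told apart in them. No test between conditions was possible with single arrays, so each difference below describes these arrays.

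AP-1 is a dimeric transcription factor built from a JUN protein (JUN, JUNB or JUND) paired with a FOS protein (FOS, FOSB, FOSL1 or FOSL2) or with another JUN protein. The dimers bind DNA through a basic leucine zipper. EGR1 and EGR2 are zinc finger transcription factors, and IER2 is a small nuclear protein encoded by another gene of the same early wave. Their genes are called immediate early because kinase signals, among them those of growth factors, antigen receptors and stress, switch them on within minutes and without new protein synthesis, after which most of these transcripts decay quickly. A sample taken hours after a stimulus therefore shows the later level of these transcripts and not their first peak.

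The promoters of JUN, JUNB and EGR1 are shown because these genes gave the clearest differences between arrays on probes measured on all 4. Each line gives the 250 bases before the transcription start, 5′ to 3′ on the strand of the gene, from RefSeq on GRCh38.p14: chr1:58784048-58784297, minus strand, for JUN, chr19:12791236-12791485, plus strand, for JUNB, and chr5:138465229-138465478, plus strand, for EGR1. Capitals mark the matches to the motifs searched.
JUN: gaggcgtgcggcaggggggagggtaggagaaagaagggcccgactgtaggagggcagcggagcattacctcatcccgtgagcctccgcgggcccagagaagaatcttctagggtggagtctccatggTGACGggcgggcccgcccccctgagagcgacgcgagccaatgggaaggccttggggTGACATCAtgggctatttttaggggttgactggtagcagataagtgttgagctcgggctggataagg
JUNB: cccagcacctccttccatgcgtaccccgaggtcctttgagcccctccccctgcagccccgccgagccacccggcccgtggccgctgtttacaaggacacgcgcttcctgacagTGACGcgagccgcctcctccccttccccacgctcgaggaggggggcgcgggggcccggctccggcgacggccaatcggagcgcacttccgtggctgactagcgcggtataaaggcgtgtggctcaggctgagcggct
EGR1: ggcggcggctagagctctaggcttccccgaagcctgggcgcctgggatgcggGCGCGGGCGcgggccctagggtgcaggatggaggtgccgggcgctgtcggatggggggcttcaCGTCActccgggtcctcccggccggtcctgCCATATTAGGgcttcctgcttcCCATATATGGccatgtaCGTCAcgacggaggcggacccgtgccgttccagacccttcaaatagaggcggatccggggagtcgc

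The motifs were searched on both strands in the same 250 bases of 35116 RefSeq promoter windows. TGACATCA, a variant of the AP-1 and CRE element known from the JUN promoter, lay 67 to 60 bases before the JUN start and occurred in 2.37% of all windows. The CArG box, the 10-base element bound by serum response factor, occurred in 1.16% of all windows. It was found at EGR1, once from 105 to 96 and once from 83 to 74 bases before the start, and at 1 of the 3 EGR2 starts in the table. TGACG, the core of the cyclic AMP response element, occurred in 21.2% of all windows and in those of JUN, JUNB and EGR1, as well as those of FOS, FOSB, FOSL2, JUND, IER2 and the same EGR2 start. The complete palindrome TGACGTCA, which contains TGACG on both strands, was found at JUND alone among the members and in 1.65% of all windows. The EGR element GCGNGGGCG was found at EGR1, as GCGCGGGCG from 198 to 190 bases before the start, and in 8.41% of all windows. The AP-1 element TGANTCA was in 6.57% of all windows and in none of the members' windows. FOSL1 had no entry in the promoter table.

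Levels are given on a log2 scale as the processed signal over the 75th percentile of its own array, so that 0 is the 75th percentile. Signals depend on the probe, so levels were compared between arrays and not between probes. The share of probes well above background lay between 55.8% and 57.4% on the 4 arrays, and no spot was saturated. The level of ACTR5, which encodes Arp5, was -0.13 in WT and -4.40 in Arp5 KO. The probes of ACTR8, which encodes Arp8, gave log2 differences from WT of -0.53 and -0.68 in Arp8 KO, which left most of the signal in place, and they differed by 0.02 and -0.01 on the array labelled Arp8 overexpression. Whether these probes lie in the disrupted part of the gene is not known here. The latter array is therefore named by its label only. HMOX1, the heme-inducible gene for heme oxygenase-1, was at -0.51 in WT, as against -3.48 in Arp5 KO, -3.42 in Arp8 KO, and -2.56 on the array labelled Arp8 overexpression. All 11 marker genes fixed for B-cell precursors were well above background on all 4 arrays, whereas none of the T-cell, erythroid or fibroblast markers was. Of the myeloid markers CD14 was, and of the epithelial markers KRT8 and KRT18 were.

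Among the members, 6 genes were well above background on all 4 arrays on at least 1 probe: JUN, JUNB, FOSL2, EGR1, EGR2 and IER2. FOS and FOSB were well above background on no array, and FOSL1 was so in WT alone. JUN was 2.47-fold higher in Arp8 KO than in WT, and was the only member past 2-fold on a probe measured on both arrays of a comparison with WT. JUNB was above WT on every other array, most so in Arp8 KO, and EGR1 was below WT in both knockouts, each by less than 2-fold. The plot of member levels shows these patterns probe by probe.

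**Figure D1:**
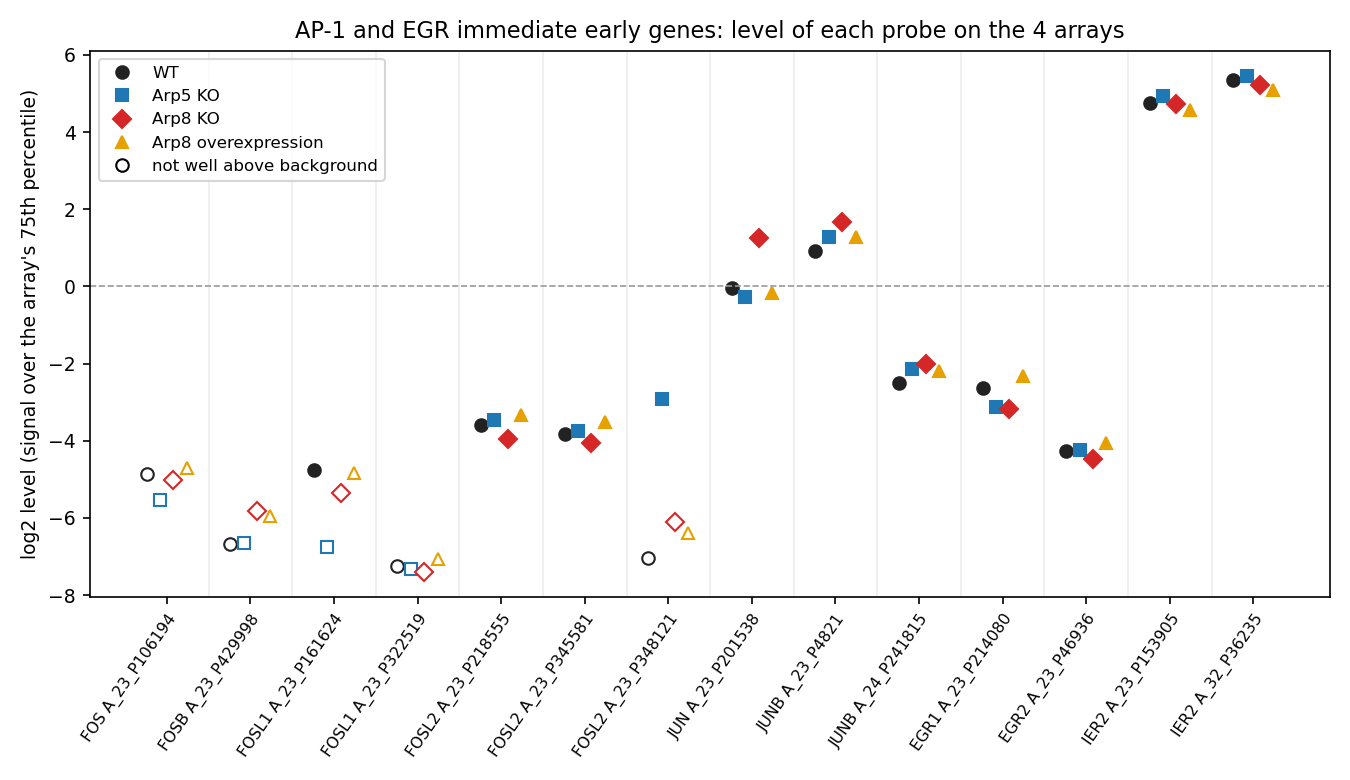
Level of each of the 14 member probes (x axis) on the 4 arrays, as log2 signal over the 75th percentile of the array (y axis), with 1 array per group and open symbols where the probe was not well above background. JUN stands at 1.26 in Arp8 KO and between -0.26 and -0.04 on the other arrays, while the FOS, FOSB and FOSL1 symbols are open except for FOSL1 probe A_23_P161624 in WT.

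JUN encodes c-Jun, the main partner of the FOS proteins in AP-1 and a target of the JNK kinases. Its probe (A_23_P201538) was printed at 10 positions on each array. The mean level over these spots was -0.04 ± 0.04 in WT, as against -0.26 ± 0.03 in Arp5 KO, 1.26 ± 0.06 in Arp8 KO, and -0.18 ± 0.03 on the array labelled Arp8 overexpression (SD, n = 10 spots of 1 array). In unscaled processed signal these levels were 713.4, 616.5, 1569.8 and 572.9. Arp8 KO was high and the other arrays were close together. The lowest of the 10 Arp8 KO spots, at 1.1, was above the highest spot of any other array, which was 0.05 in WT.

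The JUN difference between Arp8 KO and WT was 1.30 on the log2 scale, with a technical SD of 0.07 from the spots. Of the probes well above background on both arrays, 2.47% had a larger absolute difference. Arp8 KO was also 2.87-fold above Arp5 KO and 2.71-fold above the array labelled Arp8 overexpression, by log2 differences of 1.52 and 1.44, and in these comparisons 0.947% and 1.19% of probes differed by more. Below Arp8 KO, the order was WT, Arp8 overexpression and Arp5 KO, with differences from WT of -0.13 and -0.22, each with a technical SD of 0.05. The spots of these arrays did not overlap, but 66.8% and 33% of probes differed by more between the same arrays, so the order of these 3 was within the usual difference between arrays. Among 57 spots adjacent to the JUN spots, 1 was over 2-fold brighter on the Arp8 KO array than on each of the others, and 2 were so on the Arp5 KO array. Their part in the result was not tested. The plot of single spots gives the values of the JUN probe by array.

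**Figure D2:**
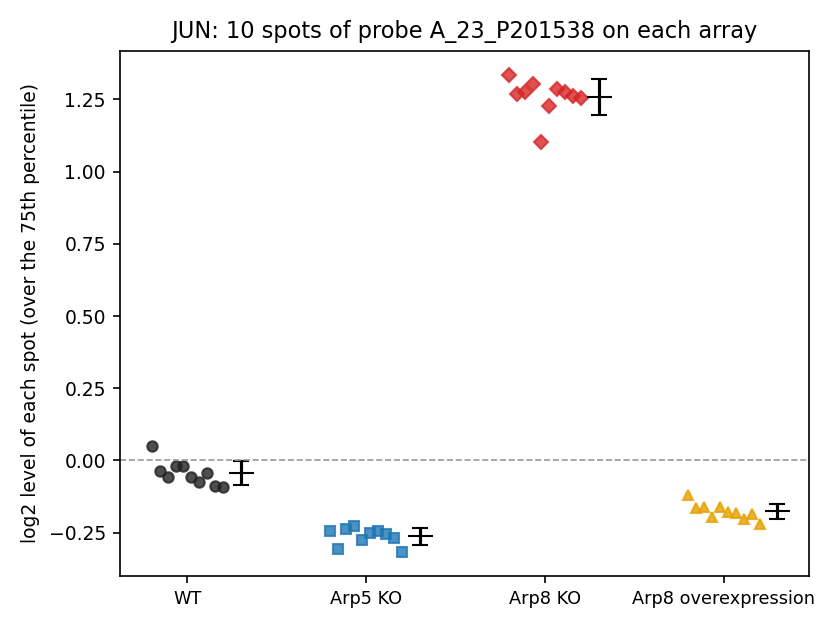
Log2 level of each of the 10 spots of the JUN probe (y axis, signal over the 75th percentile of the array) on the 4 arrays (x axis), with the mean and SD of the spots at the right of each group. The spots of Arp8 KO lie between 1.1 and 1.34, and those of the other arrays between -0.32 and 0.05.

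JUNB, whose protein pairs with FOS proteins and often restrains the activity of c-Jun, had 2 probes. Probe A_23_P4821 was at 0.92 in WT, as against 1.27 in Arp5 KO, 1.68 in Arp8 KO, and 1.29 on the array labelled Arp8 overexpression. The dimmer probe A_24_P241815 was at -2.50, -2.14, -2.0 and -2.20 on the same arrays. On both probes WT was lowest and Arp8 KO highest. Arp8 KO was above Arp5 KO by 0.41 and 0.14, and above Arp8 overexpression by 0.39 and 0.19, for the brighter and the dimmer probe in turn. Of probes well above background on both arrays, 22.2% and 27.8% differed by more than the brighter probe in these comparisons. For the dimmer probe the shares were 63.4% and 56.4%. The differences from WT were 0.35 and 0.36 for Arp5 KO, then 0.76 and 0.50 for Arp8 KO, and 0.37 and 0.31 on the array labelled Arp8 overexpression, for A_23_P4821 and A_24_P241815 in turn. The largest of them was 1.70-fold. The technical SD of these differences was 0.08 for the former probe and 0.12 to 0.13 for the latter. It was taken, as for every probe with a single spot, from probes printed many times at a similar level. In Arp8 KO, 10.6% and 23.5% of probes differed from WT by more. With normexp, a model-based background correction, the dimmer probe gave smaller differences from WT, of 0.16, 0.31 and 0.15 in the same order of arrays. Arp5 KO and Arp8 overexpression differed from each other by -0.02 and 0.05 on the 2 probes, which is within the technical SD.

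Of the FOS family, FOS encodes c-Fos, the classic partner of c-Jun. Its probe (A_23_P106194) lay at -4.87 in WT, as against -5.54 in Arp5 KO, -5.02 in Arp8 KO, and -4.72 on the array labelled Arp8 overexpression. The FOSB probe (A_23_P429998) lay at -6.69, -6.65, -5.81 and -5.96 in the same order. None of these values was well above background, so no fold was taken for either gene, and a difference in FOS or FOSB was not detectable at this signal. FOSL1 encodes Fra-1. Its probe A_23_P161624 was well above background in WT only, at -4.77, against -6.76, -5.35 and -4.83 on the other arrays. The bounds on the fold below WT were at least 1.23-fold for Arp5 KO, at least 1.32-fold for Arp8 KO and at least 1.03-fold on the array labelled Arp8 overexpression, or -0.29, -0.40 and -0.05 on the log2 scale with technical SDs of 0.38, 0.32 and 0.34. These SDs were taken at the measured levels, before a dim value was raised for the bound. A bound is a minimum, so whether FOSL1 differed by more than the technical error could not be told. With normexp the differences from WT were -0.31, -0.11 and 0.14. The bounds set the dim array at its lowest level well above background, or at the probe's own value if higher. The other FOSL1 probe, A_23_P322519, was well above background on no array, with levels between -7.40 and -7.07.

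FOSL2, which encodes Fra-2, was the FOS-family member measured on every array. Probe A_23_P218555 was at -3.60 in WT, as against -3.47 in Arp5 KO, -3.96 in Arp8 KO, and -3.34 on the array labelled Arp8 overexpression. Probe A_23_P345581 was at -3.83, -3.75, -4.06 and -3.53. Both probes put Arp8 KO lowest and Arp8 overexpression highest. The differences of Arp8 KO from WT were -0.36 and -0.23, with technical SDs of 0.19 and 0.21, and 36.1% and 53.4% of probes differed by more. With normexp they came to 0.02 and -0.03, so the lower FOSL2 level in Arp8 KO than in WT depended on the background correction. Between Arp8 KO and Arp8 overexpression the differences without normexp were -0.62 and -0.53, with a technical SD of 0.18 for each. Here 11.7% and 16.1% of probes differed by more, and this comparison was not recomputed with normexp. Of the spots adjacent to A_23_P345581, 1 was bright on the Arp8 KO array alone, and its part in the result was not tested. The remaining probe, A_23_P348121, gave another picture. It was well above background in Arp5 KO only, at -2.92, against -7.04 in WT, -6.10 in Arp8 KO and -6.39 on the array labelled Arp8 overexpression. It was at least 4.26-fold higher in Arp5 KO than in WT, a bound of 2.09 on the log2 scale. The technical SD of 0.36 was taken before the WT value was raised for the bound. The other FOSL2 probes differed by only 0.13 and 0.07 in this comparison. For this probe the log2 difference came to 1.07 with normexp, whose offset also pulls it toward 0. None of its 5 adjacent spots was bright on 1 array alone. The probes of FOSL2 thus disagreed in Arp5 KO, and this single spot has no repeat on the array.

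EGR1 is induced by mitogens and stress through serum response factor, and its protein binds GC-rich promoters. Its probe (A_23_P214080) was at -2.63 in WT, as against -3.12 in Arp5 KO, -3.18 in Arp8 KO, and -2.31 on the array labelled Arp8 overexpression, or 118.9, 85.1, 72.1 and 130.2 in unscaled processed signal. Both knockouts were low, and the other arrays were high. The log2 difference from WT was -0.49 for Arp5 KO and -0.56 for Arp8 KO, each with a technical SD of 0.14, which is 1.40-fold and 1.47-fold lower. Of all probes measured on both arrays, 8.28% differed by more in Arp5 KO and 19.7% in Arp8 KO. With normexp, whose offset pulls dim differences toward 0, they were -0.27 and -0.28. The knockouts differed from each other by -0.07, within the technical SD. Relative to the array labelled Arp8 overexpression, EGR1 was lower by 1.75-fold in Arp5 KO and by 1.83-fold in Arp8 KO, and 4.91% and 5.18% of probes differed by more in these comparisons. The treatment field gives heme for WT and Arp8 overexpression and no heme for the knockouts, so this split runs with that field as well as with genotype, and the 2 cannot be told apart. The split does not run with the other labels, since titles and protocol give heme for every array and the source field gives it for Arp8 KO.

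EGR2 is known for its roles in lymphocyte tolerance and in myelination. Its probe (A_23_P46936) was at -4.28 in WT, as against -4.23 in Arp5 KO, -4.47 in Arp8 KO, and -4.06 on the array labelled Arp8 overexpression. The differences from WT were 0.04, -0.19 and 0.22, each smaller than the technical SD of 0.23 to 0.24, so no difference from WT was detectable for EGR2. Arp8 KO differed from Arp8 overexpression by -0.41, with a technical SD of 0.23, and 26% of probes differed by more. Whether EGR2 followed EGR1 could not be told at this precision.

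IER2 had 2 bright probes, and gave the smallest technical SD of the single-spot members, between 0.06 and 0.07. Probe A_32_P36235 was at 5.35 in WT, as against 5.46 in Arp5 KO, 5.22 in Arp8 KO, and 5.09 on the array labelled Arp8 overexpression, and probe A_23_P153905 at 4.76, 4.93, 4.72 and 4.57. Both probes gave the same order, with Arp5 KO highest and Arp8 overexpression lowest. The step between these 2 arrays was 0.37 and 0.36 on the log2 scale, or 1.29-fold and 1.28-fold, and 23.5% and 25% of probes differed by more. Against WT, IER2 lay between -0.26 and 0.17 on every array, for both probes.

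Read over the members, the comparisons with WT gave few differences past 2-fold. In Arp5 KO, 1 of 11 member probes tested was higher past 2-fold, the FOSL2 probe A_23_P348121 by a bound, against 1.69% of all 24285 probes tested, and 0 were lower, against 2.01% of all. In Arp8 KO, 1 of 10, the JUN probe, was higher, against 3.37% of all 24578, and 0 were lower, against 4.35% of all. On the array labelled Arp8 overexpression 0 of 10 were higher and 0 lower, against 2.96% and 2.15% of all 24177. A probe counted as tested when at least 1 array of the comparison had it well above background, so the dim members did not enter. With so few probes these shares cannot be told from the background. The median log2 difference from WT was 0.11 over the Arp5 KO probes, -0.16 over those of Arp8 KO and 0.24 over those of the array labelled Arp8 overexpression, against medians of 0.0042, 0.026 and 0.00024 over all probes tested. These comparisons share the WT array. The signs within the family were mixed. Of the 9 member probes measured on every array, 7 were above WT and 2 below in Arp5 KO, 3 above and 6 below in Arp8 KO, and 6 above and 3 below on the array labelled Arp8 overexpression. These probes stand for 6 genes, and some differences were within the technical SD, as for EGR2, and for FOSL2 in Arp5 KO. Over all probes tested the medians lay near 0, so the signs there were divided nearly evenly. With so few member probes their sign counts cannot be told from that. In Arp8 KO the probes above WT were those of JUN and JUNB only, as the plot of member differences shows. With normexp, FOSL2 probe A_23_P218555 was also slightly above WT there.

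**Figure D3:**
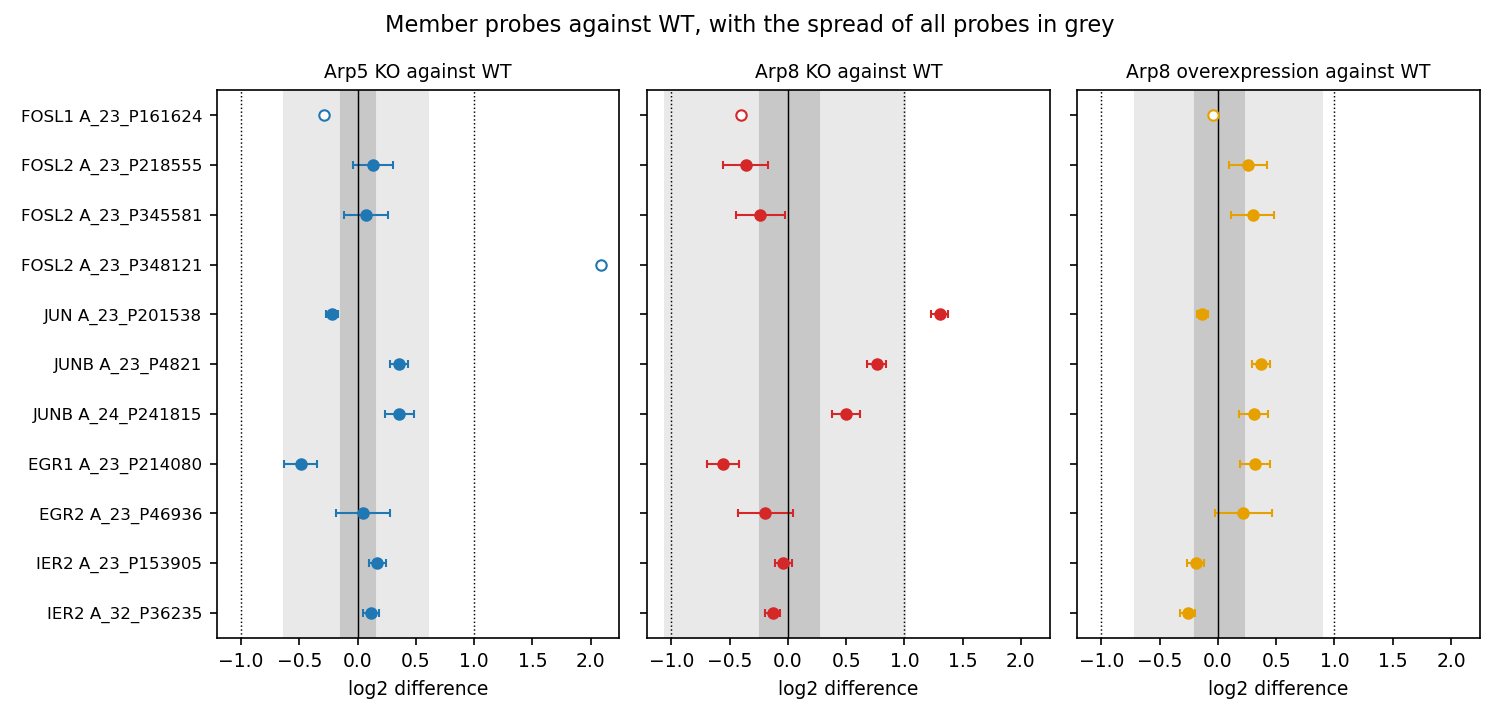
Log2 difference of each member probe from WT (x axis) in Arp5 KO, Arp8 KO and Arp8 overexpression, with technical SD as bars, bounds as open circles without bars, 2-fold as dotted lines, and the central 50% (dark) and 95% (light) of all probes well above background on both arrays in grey. In Arp8 KO, JUN at 1.30 lies outside the light band and EGR1 at -0.56 inside it, and in Arp5 KO the FOSL2 bound at 2.09 lies outside.

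The genes with the pattern most like a member were sought by Euclidean distance over the 3 log2 differences from WT, among 16575 probes of named genes that were well above background on all 4 arrays. For JUN they were LYRM9 (distance 0.18, with differences of -0.16 in Arp5 KO, then 1.13 in Arp8 KO and -0.18 on the array labelled Arp8 overexpression), SAG (0.23) and RAVER1 (0.26). For EGR1 they were MOB3A (distance 0.08, with differences of -0.50, -0.63 and 0.30), FOXD2-AS1 (0.10) and TMIGD2 (0.11). FOS could not be matched, because it was not well above background.

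The genes around the AP-1 and EGR factors were described from lists. The upstream kinases and factors, which carry signals to the immediate early promoters, had 25 probes for 17 genes, and MAPK8, the gene for JNK1, had no probe by accession. None of the 25 probes tested in Arp5 KO, or of the 24 tested in Arp8 KO and on the array labelled Arp8 overexpression, passed 2-fold in either direction. Over all probes tested, 1.69% were higher and 2.01% lower for Arp5 KO, then 3.37% and 4.35% for Arp8 KO, and 2.96% and 2.15% on the array labelled Arp8 overexpression, so a count of 0 in a list of this size was near that background. Their median differences were 0.02, 0.02 and -0.06. SRF, ELK3 and ATF3 were named after their values were seen. SRF, the factor that binds the CArG box, had 3 probes between -0.23 and 0.17 on every array compared with WT. ELK3, an ETS-family partner of SRF, differed from WT by -0.66 in Arp5 KO, by -0.68 in Arp8 KO and by 0.14 on the array labelled Arp8 overexpression.

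The AP-1 partners, basic leucine zipper proteins that pair with JUN proteins, had 8 probes tested of 10. In Arp5 KO, 0 passed 2-fold, and in Arp8 KO and on the array labelled Arp8 overexpression 1 was higher in each and 0 lower, which was BATF on both, against 3.37% and 2.96% higher over all probes tested. BATF, a partner of JUN proteins in lymphocytes, was at -1.79 in WT, as against -1.42 in Arp5 KO, -0.63 in Arp8 KO, and -0.41 on the array labelled Arp8 overexpression. It was 2.25-fold and 2.62-fold above WT on the last 2, with technical SDs of 0.09 and 0.10 on the log2 scale. Of its adjacent spots, 2 were bright on the Arp5 KO array alone, and their part in the Arp5 KO value was not tested. ATF3, a stress-induced partner, differed from WT by at most 0.43 on both of its probes. Of the EGR relatives and EGR corepressors, EGR3 and EGR4 were well above background on no array, and the 4 probes of the corepressors NAB1 and NAB2 stayed between -0.29 and 0.61 of WT.

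The feedback phosphatases and RNA decay factors are induced by the same signals and shut them off. Of 16 probes tested, 0 passed 2-fold in Arp5 KO, 2 were higher and 2 lower in Arp8 KO, and 1 was higher and 0 lower on the array labelled Arp8 overexpression. Over all probes tested, 3.37% were higher and 4.35% lower for Arp8 KO, then 1.69% and 2.01% for Arp5 KO, and 2.96% and 2.15% on the array labelled Arp8 overexpression. DUSP6, a phosphatase for ERK, was at 2.29 in WT, as against 1.69 in Arp5 KO, 1.19 in Arp8 KO, and 1.94 on the array labelled Arp8 overexpression, with Arp8 KO 2.14-fold below WT and Arp5 KO 1.52-fold below. DUSP4, a nuclear phosphatase of the same family, was 2.09-fold below WT in Arp8 KO and at 0.10 on the log2 scale in Arp5 KO. SPRY1, an inhibitor of receptor tyrosine kinase signalling, was higher than WT, by 0.79 (log2) in Arp5 KO, by 1.06 in Arp8 KO and by 1.0 on the array labelled Arp8 overexpression. DUSP2 was named after its values were seen. Its probes differed from WT by 0.41 and 0.46 for Arp5 KO, with technical SDs of 0.08 and 0.11, by 0.94 and 1.01 in Arp8 KO, and by -0.07 and -0.08 on the array labelled Arp8 overexpression.

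The list of other immediate early genes had 40 probes for 25 genes, and 12 of the probes were well above background on no array. Past 2-fold there was 1 higher and 1 lower of 28 tested in Arp5 KO, 2 higher and 2 lower of 28 in Arp8 KO, and 1 higher and 2 lower of 26 on the array labelled Arp8 overexpression. The shares over all probes tested were 1.69% higher and 2.01% lower, 3.37% and 4.35%, and 2.96% and 2.15% in the same order. With so few probes these counts cannot be told from those shares. TNFAIP3, which encodes the NF-kappaB inhibitor A20, was lowest in WT on its brighter probe, at -2.66 in WT, as against -1.26 in Arp5 KO, -1.06 in Arp8 KO, and -1.41 on the array labelled Arp8 overexpression, so that the differences from WT were 1.40, 1.6 and 1.24. Its dimmer probe was well above background in the knockouts only. The bounds were at least 1.39-fold and 1.82-fold above WT, or 0.48 and 0.87 on the log2 scale. The technical SDs were 0.62 and 0.61, taken before the WT value was raised for the bound, so the bounds cannot be set against them. RGS1, a regulator of G-protein signalling in B cells, was well above background in WT alone and at least 3.85-fold, 4.15-fold and 3.25-fold lower on the other arrays, in the same order. An adjacent spot was likewise bright on WT alone, and its part in the result was not tested. The RGS1 bounds differ only through the lowest level well above background on each array, so they do not rank the arrays. KLF2, a factor of lymphocyte quiescence, was 3.63-fold lower than WT on the array labelled Arp8 overexpression and 1.92-fold lower in Arp8 KO on its brighter probe, and higher by 0.23 on the log2 scale in Arp5 KO with a technical SD of 0.08, while its dimmer probe lay between -0.22 and 0.08. PLK3 and KLF6 were named after their values were seen. PLK3, a stress-responsive kinase, was 2.43-fold higher than WT in Arp8 KO, with log2 differences of 0.50 for Arp5 KO and 0.13 for Arp8 overexpression. KLF6, a zinc finger factor, was at least 2.29-fold lower in Arp8 KO on 1 of its probes, and the 2 KLF6 probes measured on every array were at -0.47 and -0.32 there. On the array labelled Arp8 overexpression the former probe was at least 1.86-fold lower, and the latter were at -0.39 and -0.35. As bounds, the folds of the former probe do not rank these arrays. In Arp5 KO the same probes were at -0.58, -0.06 and -0.02. The plot of related lists gives each probe.

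**Figure D4:**
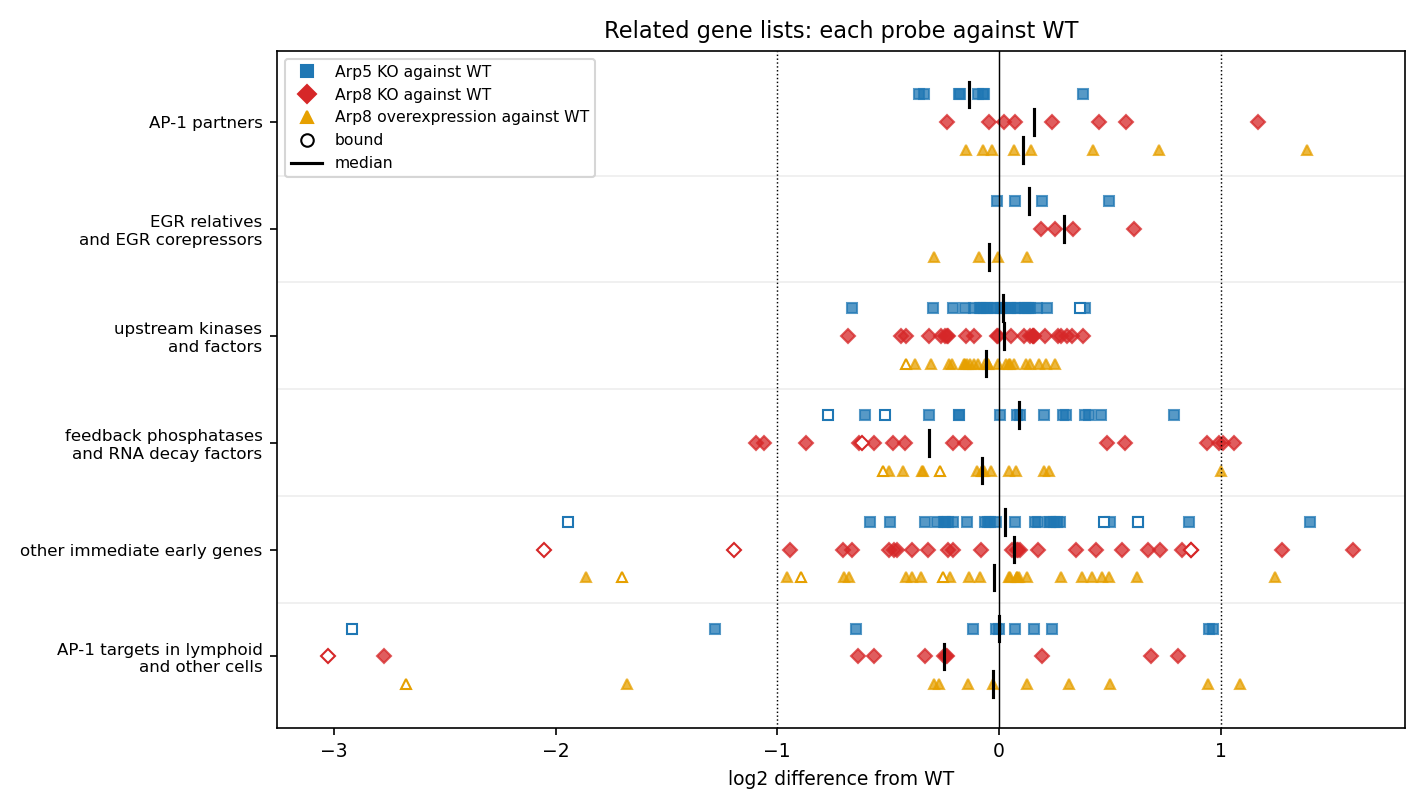
Log2 difference from WT (x axis) of every tested probe in the 6 related gene lists (y axis) for Arp5 KO, Arp8 KO and Arp8 overexpression, with bounds as open symbols, the median of each list as a black bar and 2-fold as dotted lines. The upstream kinases and factors and the EGR list all lie within 2-fold, while probes past 2-fold occur among the AP-1 partners, feedback genes, other immediate early genes and AP-1 targets.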

How the data were processed

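Total RNA was labelled with Cy3 and hybridised to 1-colour Agilent arrays, 1 per group. The values deposited for each array are spot intensities on a linear scale, made by the authors with Agilent Feature Extraction 10.10.1.1 on a design of build hg19. The signal was background-subtracted and detrended within each array and not normalized between arrays. The deposited series matrix holds the same intensity times 1 factor per array (1.99 to 2.29) and was an alternative.

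Values were log2 of the processed signal over the array's 75th percentile (735.1 in WT, then 739.6 with Arp5 KO, 655.7 with Arp8 KO and 647.4 with Arp8 overexpression). Outlier spots (69 to 76 per array) were left out and replicate spots averaged. A probe was well above background if at least 50% of its spots were flagged so by the software, and was tested if this held on 1 of the arrays compared. A dim value was set no lower than the array's lowest value well above background, which gives a bound. Of 28354 probes with a RefSeq accession, 27210 matched a symbol in the GRCh38.p14 table. The technical SD of a difference came from the spots of a probe, or from probes with at least 8 usable spots whose level lay within 1 log2 unit. For a bound, the dim level used for this was the measured one and not the raised one. The technical SD reflects repeat spots within an array and no biological spread, so precision is limited by having 1 array per group. Spots were adjacent if within 20 pixels.

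The named genes were the members, ACTR5, ACTR8 and HMOX1, up to 3 probes of each related list with the largest difference past 2-fold, and the 3 genes nearest to FOS, JUN and EGR1. The members and lists were chosen with earlier results of these data known. The related lists held 79 genes. The scaling and the call past 2-fold were tested on simulated data, with changes past 2-fold given to probes that were not dim. Bounds, changes in dim probes and differences under 2-fold were not covered by that test. Python 3.11.15, R 4.3.3 and limma 3.58.1 were used. Alternatives were cyclic loess, quantile and median scaling, normexp background correction (offset 50), the series matrix, other filters, gene means, a 4-fold threshold, Arp8 overexpression as the reference, and dropping any probe with 50% or more of its spots next to a spot that exceeded the other arrays by more than 2-fold on a single array.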

Additional observations from a re-analysis of the deposited data

How the results depend on the processing

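JUN stayed between 1.18 and 1.32 (log2) above WT in Arp8 KO under the alternatives that kept WT as the reference, and EGR1 between -0.50 and -0.27 in Arp5 KO and between -0.57 and -0.28 in Arp8 KO; the values nearest 0 came from normexp. With Arp8 overexpression as the reference, the median of the member probes turned to -0.051 in Arp5 KO and to 0.13 in Arp8 KO, and JUNB probe A_23_P4821 in Arp5 KO came to -0.02. With normexp, the median was -0.0072 in Arp8 KO and 0.15 on the array labelled Arp8 overexpression. The count past 2-fold in Arp5 KO was 0 over probes well above background on both arrays, 0 by the mean over the probes of a gene, and 2 with no filter and no floor; in Arp8 KO it was 0 at the 4-fold threshold. These counts follow from the settings. The first setting drops bounds by construction. The gene mean averages the FOSL2 bound with the other FOSL2 probes, which gave 0.77. With no floor, FOSL1 probe A_23_P161624 came to -1.99 in Arp5 KO and entered the count. JUN in Arp8 KO, at 2.47-fold, lies under the 4-fold threshold. The cause of the other shifts was not tested. No other member count moved, and of 279 recomputed values of single member probes 246 moved by less than the technical SD. No paired analysis was possible because each group had 1 array, and for the same reason no array could be left out. The members not well above background are limited by signal over background.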

Other observations

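A list of genes known as AP-1 targets in lymphoid or other cells was also measured, with 17 probes for 12 genes. Of these probes, 6 were well above background on no array. Of 11 probes tested, 0 were higher and 2 lower past 2-fold in each knockout, and 1 was higher and 2 lower on the array labelled Arp8 overexpression. Over all probes tested, the shares higher and lower were 1.69% and 2.01% for Arp5 KO, then 3.37% and 4.35% for Arp8 KO, and 2.96% and 2.15% on the array labelled Arp8 overexpression. The lower probes were those of SPP1 and IL2RA on each array. SPP1, which encodes the secreted protein osteopontin, was at 1.29 in WT, as against 0.01 in Arp5 KO, -1.48 in Arp8 KO, and -0.39 on the array labelled Arp8 overexpression over 10 spots per array. It was 2.43-fold, 6.84-fold and 3.20-fold lower than in WT, with technical SDs of 0.10 to 0.11 on the log2 scale, and Arp8 KO was lowest for SPP1 where it was highest for JUN. IL2RA, the alpha chain of the interleukin-2 receptor, was well above background on the WT array alone on 1 of its probes and on no array on the other. The former was at least 7.57-fold, 8.14-fold and 6.38-fold lower on the other arrays in the same order, and 2 of its adjacent spots were bright on the WT array alone. Their part in the IL2RA values was not tested. The IL2RA bounds differ only through the lowest level well above background on each array, so they do not rank the arrays. LMNA, the gene for lamin A and C, was lowest in WT on both probes, with differences of 0.96 and 0.95 for Arp5 KO, then 0.68 and 0.81 for Arp8 KO, and 0.94 and 1.09 on the array labelled Arp8 overexpression.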
